A study of Homo sapiens with 4 samples.

Results

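The genes described here encode the machinery that brings nuclear-encoded proteins into mitochondria and the chaperones and proteases that fold or remove them once inside. The list holds 42 genes, chosen by name and not by their values, of which 28 act in import and 14 in quality control. Of these, 38 were measured among 12242 genes in all, 25 in the import group and 13 in the quality control group. The probe sets of TOMM6 and TOMM7 each name several genes, and the only single-gene probe sets of TIMM23 and SPG7 were below the filter on dim signals, a mean of 32.9 signal units over the 4 arrays. The mean signals of the measured members ran from 204 to 8806, their lowest signal on any array was 136, and 18 of them lay in the top 10% of all genes by level.

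Transcripts were measured in HEK293 cells, an established line of human embryonic kidney origin that carries adenoviral DNA, on 4 single-colour Affymetrix arrays. Cells were kept for 7 days in DMEM with fetal calf serum and either 450 mg/dl glucose (high glucose, 2 arrays) or 100 mg/dl (low glucose, 2 arrays), with no other treatment named in the labels. The question is how the transcript levels of this machinery compare between the glucose concentrations in 1 cell line. Each array is labelled a biological replicate, but separate cultures are not described, so p-values measure the spread between these samples, which may be partly technical. In such bulk RNA, fewer cells of a kind and less RNA per cell cannot be told apart.

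As background, most mitochondrial proteins are made in the cytosol and enter through the TOM complex of the outer membrane. Proteins with a cleavable presequence then pass the TIM23 complex and are pulled into the matrix by an Hsp70 motor, carriers are inserted by the TIM22 complex with the help of small TIM chaperones, and beta-barrel proteins are inserted by the SAM complex. Inside, the chaperonin HSPD1 with its cap HSPE1 and the Hsp70 HSPA9 fold the incoming chains, and LONP1, the ClpXP protease and membrane-bound AAA proteases degrade those that fail to fold.

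Most import genes had higher signals in high glucose, led by GRPEL1 and TOMM40, while the quality control group held the widest spread, with HSPE1 3.10-fold higher and LONP1 2.54-fold lower. Of the 25 measured import genes, 18 rose, 2 fell and 5 did not pass (limma, adjusted p under 0.05). The 18 include TIMM22, of which the brightest probe set rose and the others fell. Of the 13 quality control genes, 7 rose, 3 fell and 3 did not pass. Over all genes tested, 57.6% were called, 24.3% as higher and 33.3% as lower in high glucose. In a fit of the 9856 genes with a mean signal of at least 100, which include all 38 measured members, 64.2% were called. There 2875 genes were called higher and 3453 lower. The median log2 difference, high minus low glucose, was 0.32 for import and 0.25 for quality control, beside -0.10 for all genes. For the genes with a mean signal of at least 100 it was -0.045. A call with a change of at least 1.5-fold was made upward for 9 import genes and 1 quality control gene, and downward for 0 and 1, respectively, beside 10.8% of all genes upward and 19.3% downward, and TIMM22 is again among the 9. The signals of the groups did not overlap for 35 of the 38 members, beside 79.8% of all genes. High glucose lay above for 27 members and below for 8, beside 33.6% and 46.2% of all genes.

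The overall scaling of the arrays bears on small differences. The authors' scaling set the trimmed mean of each array to about 200.02, and 42.1% of all called genes were then higher in high glucose. Centring each array on its median moved that share to 58.8% and the median of all genes to 0.07, and then 19 import genes were called higher and 1 lower, and 8 quality control genes higher and 2 lower, beside 33.1% of all genes higher and 23.2% lower. The 24 probe sets for bacterial poly-A transcripts, which are added to RNA before labelling, were 3.84-fold higher in high glucose, by a median of 1.94 log2 units, and no member rose by as much. The 6 ribosomal RNA probe sets were 3.31-fold higher by their median. The 18 hybridisation control probe sets had median signals of 486 and 875 on the high glucose arrays and 869 and 891 on the low glucose arrays. High glucose replicate 1 thus stood apart in these. The part of any of these controls in the results below was not tested. Of 10 markers of HEK293 cells, 8 were at or above the filter signal and NEFM and INA were below it. Of these 8, LIN28B, KRT18, KRT8 and CDH2 rose in high glucose (2.41-fold, 2.10-fold, 2.09-fold and 1.45-fold), VIM and HEY1 fell (1.87-fold and 1.73-fold), and NEFL and PAX2 did not pass. None of the 5 leukocyte markers with a probe set reached the filter signal, nor did any of 5 hepatocyte markers. Of 7 fibroblast markers 2 did, COL1A1 and COL3A1, and the summed signal of that list was 528 and 540 in high and 338 and 388 in low glucose. Of 5 adipocyte markers 1 did, CIDEC, with sums of 79.2 and 90.1 in high and 120 and 127 in low glucose. The part of these markers in the results was not tested.

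**Figure D1:**
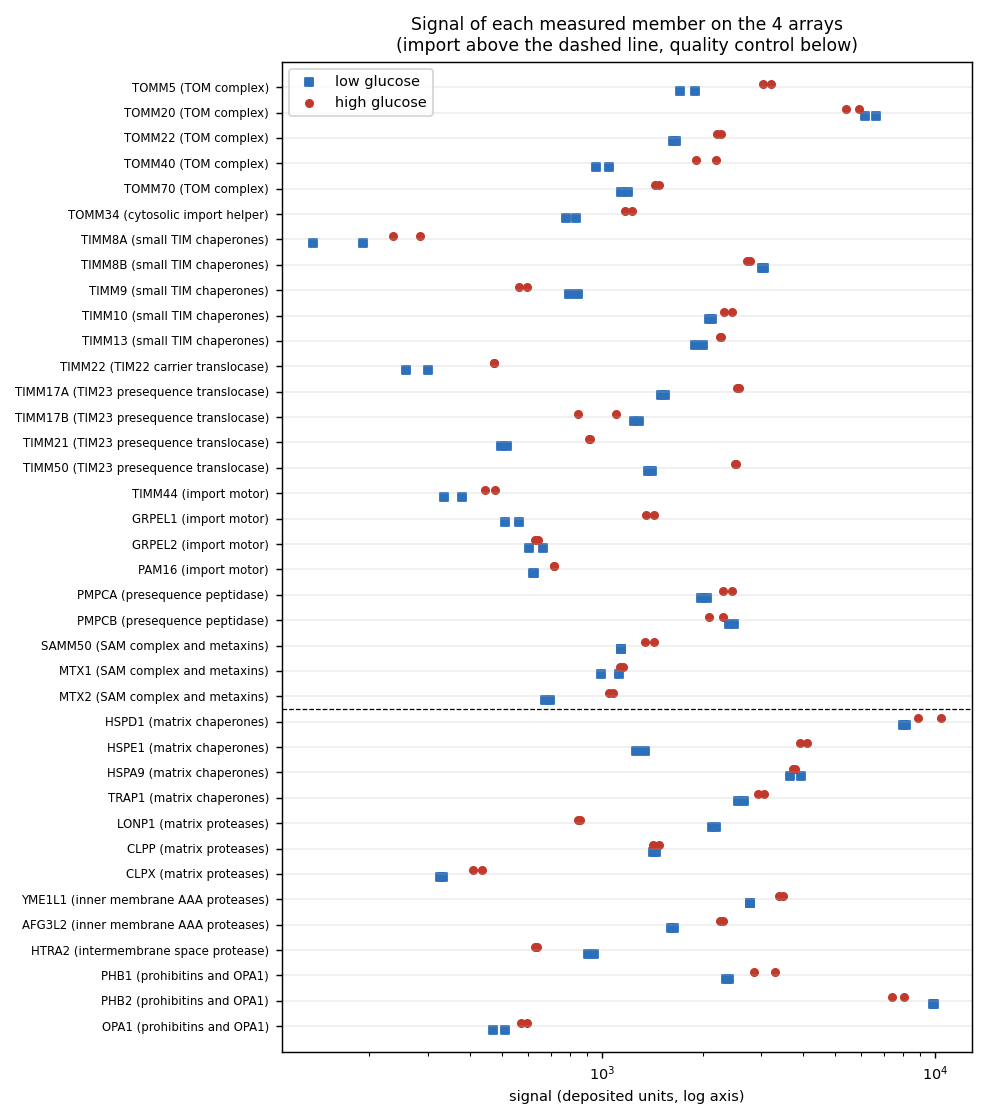
Signal of each of the 38 measured members on each array, in deposited units on a log axis, with red circles for the 2 high glucose arrays and blue squares for the 2 low glucose arrays. HSPE1, GRPEL1 and TOMM40 lie to the right in high glucose and LONP1 to the left, while GRPEL2, HSPA9 and CLPP overlap between the groups.

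The TOM complex is the general entry gate of the outer membrane. Of its 5 measured genes 4 rose and TOMM20 did not pass. TOMM40, the channel-forming subunit, stood at 1914 and 2188 in high glucose and at 1047 and 959 in low glucose. Both high glucose arrays were well above both low glucose arrays, and the difference was 1.03 ± 0.08 log2 units (SE, 2.04-fold, limma adjusted p = 3.9e-05). The TOMM40 values rest on 1 probe set. TOMM5, a small subunit that helps to assemble the complex, had signals of 3028 and 3214 against 1709 and 1893 (1.73-fold, adjusted p = 6.9e-05). Its further probe set rose by 0.82 log2 units. TOMM22, the central receptor that ties the channels together, had a brightest probe set that rose by 0.44 log2 units. Its other probe sets stood at 0.12 and 0.93 and did not pass. TOMM70, the receptor for carrier precursors, rose from 1198 and 1135 in low to 1436 and 1481 in high glucose, by 0.32 log2 units. A further TOMM70 probe set stood at 0.19 and did not pass. TOMM20, the receptor for presequences, went the other way without passing, at 5396 and 5914 in high and 6132 and 6613 in low glucose (-0.17, 95% interval -0.36 to 0.011). It was called lower without high glucose replicate 2 (-0.24, adjusted p = 0.029). TOMM34, a cytosolic co-chaperone linked to import, rose from 778 and 835 to 1169 and 1228, by 0.57 log2 units.

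The small TIM proteins carry hydrophobic precursors across the space between the membranes, and their 5 genes went in different directions. TIMM9 fell, from 796 and 844 in low to 562 and 597 in high glucose (-0.50 ± 0.07 log2 units, limma adjusted p = 5.6e-04). TIMM10, which forms a ring-shaped complex with TIMM9, stood at 2321 and 2459 in high and at 2133 and 2098 in low glucose, a rise of 0.18 log2 units (adjusted p = 0.034). The TIMM10 call was lost without high glucose replicate 2 (adjusted p = 0.13), low glucose replicate 1 (0.089) or low glucose replicate 2 (0.13), after quantile normalization (0.074) and with no filter (0.057). The further TIMM10 probe set rose by more, 0.69 log2 units. TIMM8A, a partner of TIMM13 and the gene of a deafness-dystonia syndrome, was the dimmest member measured, with 283 and 236 in high and 136 and 192 in low glucose. It rose by 0.68 ± 0.18 log2 units (adjusted p = 0.015), and did not pass without high glucose replicate 1 (adjusted p = 0.095), or without low glucose replicate 1 where the tested genes and probe sets were kept as with all arrays (0.43, adjusted p = 0.051). TIMM13 rose by 0.22 log2 units, a call that ended when low glucose replicate 1 was left out (adjusted p = 0.092). TIMM8B, the paralog of TIMM8A, had 2773 and 2722 in high and 3023 and 3065 in low glucose in its brightest probe set, which did not pass (-0.15), turned to 0.022 after median centring and was called lower after quantile normalization (adjusted p = 0.016). The other TIMM8B probe set rose by 0.62 log2 units, from 190 and 218 to 317 and 310, so the direction of TIMM8B depends on the probe set.

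TIMM22, the channel of the carrier translocase, gave probe sets with opposite calls. The brightest stood at 475 and 472 in high and 258 and 300.5 in low glucose, a rise of 0.77 log2 units (adjusted p = 4.2e-04 in the limma fit of genes). The 2 others fell, by 0.49 and 0.50 log2 units, with 207 and 214 against 272 and 320 in the first and 147 and 149 against 217 and 202 in the second. The mean of the 3 was -0.074 and did not pass. No direction can be given for this gene.

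The TIM23 complex takes presequence proteins across or into the inner membrane. Of its 4 measured genes, TIMM50, TIMM21 and TIMM17A rose and TIMM17B fell. TIMM50, the receptor on the outer face of the channel, had 2527 and 2508 in high and 1370 and 1409 in low glucose (1.81-fold, limma adjusted p = 1.7e-05). Without the probe set classes that can match several transcripts (suffixes _x_at and _s_at) it was represented by a dimmer probe set at 0.35 log2 units, which did not pass. TIMM21, which links TIM23 to the respiratory chain, had 922 and 915 against 518 and 497, also a 1.81-fold rise (adjusted p = 3.0e-05). Its further probe set, at 202 and 223 against 197 and 217, showed a difference of 0.037 and did not pass.

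TIMM17A and TIMM17B are alternative subunits of the TIM23 channel, and their transcripts moved apart. TIMM17A stood at 2571 and 2545 in high and 1504 and 1545 in low glucose, a rise of 0.75 ± 0.05 log2 units (limma adjusted p = 3.0e-05). A further TIMM17A probe set rose by 0.73 log2 units, and a dim one at 0.62 did not pass. TIMM17B was lower in high glucose, at 845 and 1100 against 1289 and 1250, with a difference of -0.40 ± 0.11 (adjusted p = 0.019). The high glucose arrays of TIMM17B lay apart from each other, and its call was lost without high glucose replicate 1 (-0.21, adjusted p = 0.054), after median centring (-0.23, adjusted p = 0.091) and, with genes and probe sets kept, without low glucose replicate 1 (-0.37, adjusted p = 0.056).

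The import motor pulls chains into the matrix with the Hsp70 HSPA9. GRPEL1, its nucleotide exchange factor, had the largest rise of the import genes. Its signals were 1435 and 1351 in high and 563 and 512 in low glucose, a difference of 1.37 ± 0.07 log2 units (2.59-fold, limma adjusted p = 7.7e-06). The further GRPEL1 probe set also rose, by 0.82 log2 units, from 543 and 503 to 958 and 890.5. GRPEL2, the second exchange factor, overlapped between the groups, at 640 and 631 in high and 603 and 664 in low glucose. Its difference was 0.0067, with a 95% interval from -0.16 to 0.17, and its sign turned after quantile (-0.013) and cyclic loess normalization (-4.7e-05). TIMM44, which anchors the motor to the channel, rose by 0.37 log2 units, with 444 and 476 against 380 and 335, a call that ended without high glucose replicate 2 on the same probe set (0.32, adjusted p = 0.070). Without that array the other TIMM44 probe set was the brighter one, and it gave 0.15 (adjusted p = 0.33). PAM16, a J-like protein that restrains the motor, rose by 0.21 log2 units, with 718 and 717 against 618 and 624. Its adjusted p was 0.020, and 0.084, 0.079 and 0.057 without high glucose replicate 1, high glucose replicate 2 and low glucose replicate 1.

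Presequences are cut off in the matrix by a peptidase of PMPCA and PMPCB, and beta-barrel proteins are handled by SAMM50 and the metaxins. PMPCA rose by 0.24 log2 units (limma adjusted p = 0.012), and did not pass without high glucose replicate 1 (adjusted p = 0.055) or low glucose replicate 1 (0.066). PMPCB, the catalytic subunit, stood at -0.15 and did not pass, with 0.017 after median centring, and was called lower without high glucose replicate 2 (-0.22, adjusted p = 0.028) and after quantile normalization (-0.20, adjusted p = 0.019). MTX2 rose from 674 and 697 in low to 1050 and 1080 in high glucose (1.55-fold, adjusted p = 9.1e-05). MTX1, its partner on the outer membrane, had 1155 and 1128 in high and 1120 and 993 in low glucose and did not pass (0.11), but was called higher after median centring (0.28, adjusted p = 0.011) and without low glucose replicate 1 (0.20, adjusted p = 0.047). SAMM50, the central subunit of the SAM complex, rose by 0.29 log2 units, while a further probe set stood at 0.016 and did not pass.

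**Figure D2:**
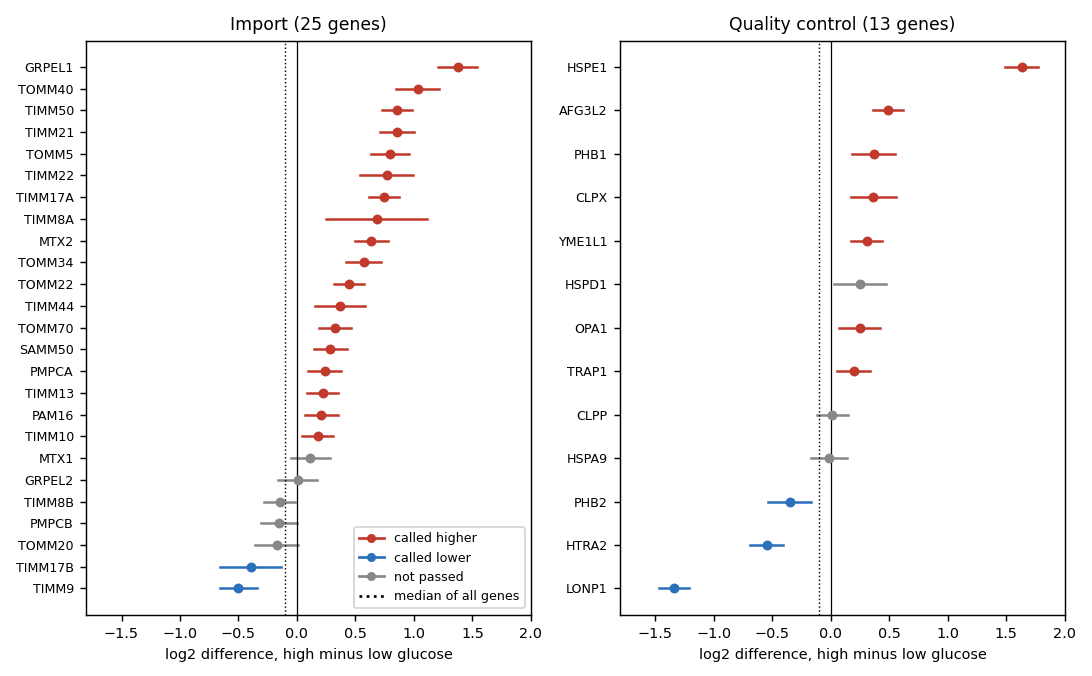
Log2 difference of each measured member, high minus low glucose, with its 95% interval from the limma fit, for the 25 import and 13 quality control genes. Red marks genes called higher, blue genes called lower and grey genes that did not pass, and the dotted line is the median of all genes at -0.10. Import runs from -0.50 (TIMM9) to 1.37 (GRPEL1), and quality control from -1.34 (LONP1) to 1.63 (HSPE1).

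In the quality control group the largest rise was that of HSPE1, the Hsp10 cap of the mitochondrial chaperonin. Its signals were 3932 and 4130 in high and 1341 and 1261 in low glucose, 3.10-fold higher (1.63 ± 0.06 log2 units, limma adjusted p = 2.0e-06), and 99.4% of all genes had a smaller or more negative difference. The HSPE1 values rest on 1 probe set, of the _s_at class. HSPD1, the Hsp60 barrel that HSPE1 closes, was the brightest member, with 8861 and 10392 in high and 7998 and 8163 in low glucose. Its brightest probe set stood at 0.25 ± 0.09 and did not pass (adjusted p = 0.056). Its 3 further probe sets were called higher. The bright one of these had 5085 and 5415 against 3714 and 3953 (0.45), and the dimmer ones had 137 and 157 against 52.3 and 32.1 (1.84) and 52.1 and 53.6 against 27.3 and 19.7 (1.19). HSPD1 was also called higher after quantile normalization (0.61), median centring (0.42) and cyclic loess (0.27), and without high glucose replicate 1 (0.36, adjusted p = 0.0042).

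HSPD1 and HSPE1 lie head to head on chromosome 2, so the bases that separate them are shown here as the shared upstream stretch of the member that rose most and its partner. RefSeq (GRCh38.p14) places the HSPE1 start 104 bases from the outer HSPD1 start and 538 bases from an inner HSPD1 start. The whole stretch between the HSPE1 start and the outer HSPD1 start is chr2:197500275-197500378, given on the strand of HSPE1, and the capitals mark the match to the palindromic pattern bound by the factor NRF1, with 2 free bases in its middle. The second stretch is chr2:197500061-197500089, on the strand of HSPD1. This stretch lies upstream of the inner HSPD1 start but downstream of the outer HSPD1 start, and 289 bases from the HSPE1 start. Its capitals mark 3 overlapping matches to the heat shock element cores TTCNNGAA and GAANNTTC. This stretch was noticed after the search. At least 3 such matches were found in 68 of 35116 promoter windows of the same length (0.194%).
HSPE1: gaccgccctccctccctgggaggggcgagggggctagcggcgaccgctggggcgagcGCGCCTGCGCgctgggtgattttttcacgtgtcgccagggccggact
HSPD1: cattTTCTGGAAAGTTCTGGAAccgagcg

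Smaller differences were measured for the other matrix chaperones. HSPA9, the mitochondrial Hsp70 of the import motor and of folding, had 3781 and 3745 in high and 3658 and 3960 in low glucose, which overlap. Its difference was -0.017 with a 95% interval from -0.17 to 0.14, and it turned to 0.013 after quantile normalization and 0.15 after median centring. A dimmer HSPA9 probe set fell by 0.42 log2 units, with 386 and 451 against 545 and 572. Another HSPA9 probe set, also below the brightest in signal, stood at -0.21 and did not pass. Its signals were 2126 and 2400 in high and 2628 and 2585 in low glucose. HSPA9 was called lower with the mean of its probe sets (-0.21, adjusted p = 0.026) and without _x_at and _s_at probe sets (-0.42, adjusted p = 0.0065). TRAP1, an Hsp90 of the matrix, rose by 0.19 log2 units (limma adjusted p = 0.025), with adjusted p = 0.080, 0.056 and 0.14 without high glucose replicate 2, low glucose replicate 1 and low glucose replicate 2.

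LONP1, the main protease of the matrix, had the largest fall of the 38 members. Its signals were 856 and 849 in high and 2135 and 2188 in low glucose, 2.54-fold lower in high glucose, with a difference of -1.34 ± 0.05 log2 units (limma adjusted p = 2.8e-06). Only 3.90% of all genes had a more negative difference. It rests on 1 probe set. The other soluble matrix protease, ClpXP, has CLPX and CLPP as its components. CLPX, its unfoldase, had 436 and 410 against 332 and 326 and rose by 0.36 log2 units, with a call that was lost without high glucose replicate 1 (adjusted p = 0.054). The other CLPX probe set stood at 0.20 and did not pass. CLPP, the peptidase of ClpXP, had 1418 and 1477 in high and 1450 and 1419 in low glucose. The CLPP difference of 0.012 (95% interval -0.12 to 0.14) did not pass and turned to -0.050 after quantile normalization. The 250 bases before the outer LONP1 start, chr19:5720453-5720702 on the minus strand, are shown for the member that fell most. Capitals mark a match to the NRF1 pattern.
LONP1: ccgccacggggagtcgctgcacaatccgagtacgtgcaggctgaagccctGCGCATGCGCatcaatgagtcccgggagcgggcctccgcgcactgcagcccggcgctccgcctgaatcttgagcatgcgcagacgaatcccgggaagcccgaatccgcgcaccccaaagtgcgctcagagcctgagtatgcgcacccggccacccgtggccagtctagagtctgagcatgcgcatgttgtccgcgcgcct

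The membrane-bound proteases and the protease of the intermembrane space went opposite ways. AFG3L2, the matrix-facing AAA protease, rose from 1639 and 1610 in low to 2300 and 2259 in high glucose, by 0.49 log2 units (limma adjusted p = 2.1e-04). Its further probe set stood at -0.061 and did not pass. YME1L1, the AAA protease that faces the other side and cleaves OPA1, rose by 0.31 log2 units, with 3481 and 3399 against 2779 and 2781. Further YME1L1 probe sets stood at 0.27, 0.13 and, for a dim one, 1.16 log2 units. The one at 0.13, with 3020 and 2903 in high and 2734 and 2690 in low glucose, did not pass. HTRA2, a serine protease of the intermembrane space that is released in apoptosis, fell from 907 and 946 in low to 629 and 638 in high glucose (-0.55 ± 0.06, adjusted p = 2.1e-04). Its further probe set fell too, by 0.77 log2 units, with 412 and 373 against 749 and 599.

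The prohibitins PHB1 and PHB2 form a joint ring scaffold in the inner membrane that binds AAA proteases, and their transcripts were called in opposite directions. PHB1 had 2851 and 3305 in high and 2407 and 2359 in low glucose, a rise of 0.37 log2 units. The other PHB1 probe set stood at -0.051 and did not pass. PHB2 had 7383 and 8049 against 9830 and 9870, a difference of -0.35 (limma adjusted p = 0.0068). The PHB2 call was lost after quantile normalization (-0.024) and median centring (-0.18), without low glucose replicate 1 (adjusted p = 0.066) and without low glucose replicate 2 (0.072). OPA1, the GTPase of inner membrane fusion, rose by 0.25, 0.27 and 0.38 log2 units in its 3 probe sets above the filter. In the gene fit its call was lost without high glucose replicate 1 (adjusted p = 0.12), high glucose replicate 2 (0.057) and low glucose replicate 1 (0.10).

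Ratios between partner genes within an array do not depend on the factor by which that array was scaled, so 11 pairs that share a complex or are paralogs were compared this way. The log2 ratio of HSPD1 to HSPE1 was 1.17 and 1.33 on the high glucose arrays and 2.58 and 2.69 on the low glucose arrays, a 2.61-fold shift towards HSPE1. The ratio of GRPEL1 to GRPEL2 was 1.16 and 1.10 in high and -0.10 and -0.38 in low glucose, a 2.58-fold shift towards GRPEL1. That of TIMM17A to TIMM17B was 1.60 and 1.21 in high and 0.22 and 0.31 in low glucose, a 2.21-fold shift towards TIMM17A. The ratio of PHB1 to PHB2 shifted 1.65-fold towards PHB1 and that of TIMM9 to TIMM10 shifted 1.60-fold towards TIMM10. The remaining shifts were 1.78-fold towards TIMM8A for TIMM8A and TIMM8B, 1.44-fold for MTX1 and MTX2, 1.41-fold for TOMM20 and TOMM70, 1.31-fold for PMPCA and PMPCB, 1.27-fold for CLPP and CLPX and 1.12-fold for TIMM44 and PAM16. That last pair was barely apart, at -0.69 and -0.59 in high and -0.70 and -0.90 in low glucose. The ratios of the groups did not overlap in any of the 11 pairs, for which no share over other gene pairs was computed, and single genes did not overlap in 79.8% of cases. In an exact two-sided permutation test each gave p = 0.33, also after Benjamini-Hochberg adjustment, which is the smallest value that 2 arrays against 2 allow. The shifts depend on the probe sets in part. With the other TIMM8B probe set the shift of TIMM8A over TIMM8B was 1.04-fold and the groups overlapped. With its further probe sets, the HSPD1 to HSPE1 shift was 2.26-fold and 1.36-fold in the same direction, and 1.16-fold in the opposite one, with overlap, for a dim probe set. The GRPEL1 to GRPEL2 shift lay between 1.72-fold and 2.58-fold over 4 combinations and that of TIMM17A to TIMM17B between 2.02-fold and 2.21-fold over 3. That of PHB1 to PHB2 was 1.23-fold with the other PHB1 probe set and that of TIMM9 to TIMM10 2.28-fold with the other TIMM10 probe set. With the other CLPX probe set the CLPP and CLPX groups overlapped, at 1.14-fold, and with the other TIMM44 probe set the TIMM44 to PAM16 shift turned to -0.037 log2 units, with overlap. The ratio itself reflects the probes as well as the transcripts, and only its shift is read here.

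**Figure D3:**
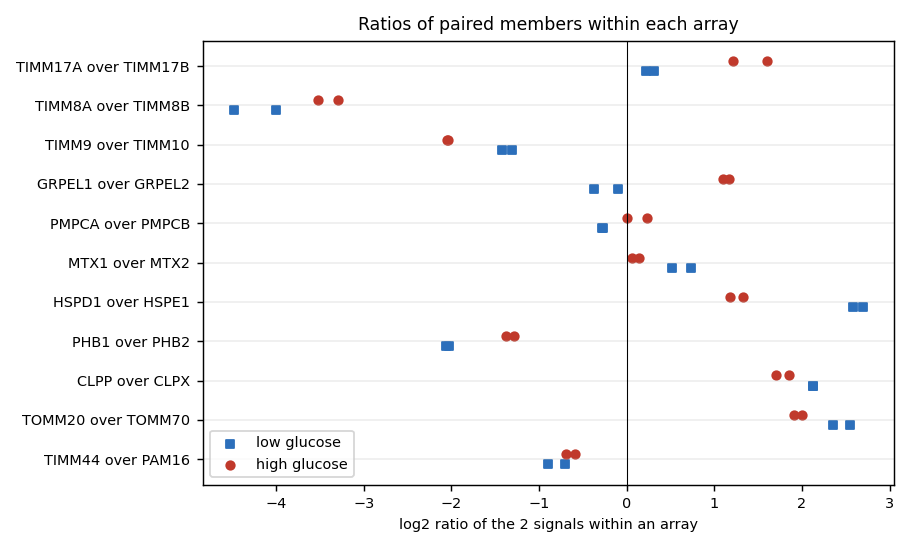
Log2 ratio of the signals of paired members within each array, for 11 pairs, by the brightest probe set of each gene, with red circles for the 2 high glucose arrays and blue squares for the 2 low glucose arrays. The widest gaps between the groups are those of HSPD1 over HSPE1, GRPEL1 over GRPEL2 and TIMM17A over TIMM17B, and the narrowest that of TIMM44 over PAM16.

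Further probe sets test how far a call rests on the probe set chosen. The members had 99 probe sets that name 1 gene, and 69 of them passed the filter. Of these 37 were called higher, 9 lower and 23 did not pass, in a limma fit over 27307 probe sets in which 50.4% were called, 23.1% as higher and 27.2% as lower. Of the 31 further probe sets beside the brightest ones, 26 had the sign of the brightest probe set. Of the 31, 9 were called in the same direction as it and 2, both of TIMM22, in the opposite direction. These counts of calls cover only genes whose brightest probe set was called. Where it did not pass, the further probe sets of HSPD1 were called higher and 1 of HSPA9 lower. That of TIMM8B was called higher, at 0.62 against -0.15 for its brightest probe set.

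**Figure D4:**
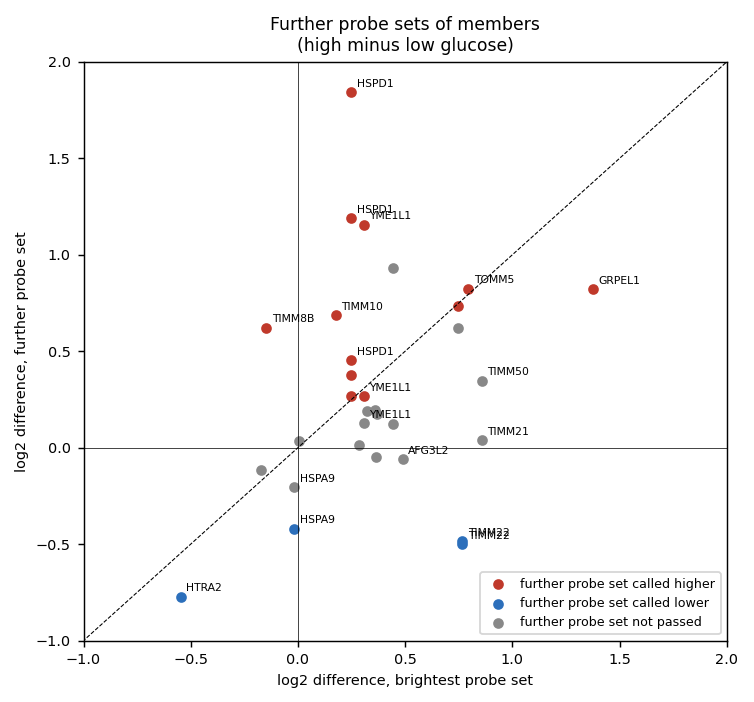
Log2 difference, high minus low glucose, of each of 31 further probe sets against that of the brightest probe set of the same gene, coloured by the call of the further probe set, with equality as a dashed line. TIMM22 lies in the lower right, with -0.49 and -0.50 against 0.77, and HSPD1 above the line at 0.45, 1.19 and 1.84 against 0.25.

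Set among all tested genes, 20 of 25 import members and 10 of 13 quality control members lay above the median difference of all genes. In 19 further measured genes of import, from a list of 20, 12 rose, 4 fell and 3 did not pass, with a median of 0.35. So 84.2% were called, beside 57.6% of all genes and 64.2% in the fit of genes with a mean signal of at least 100. TOMM40L, a relative of the TOM channel, had the largest rise of this list, 1.90-fold, with 178 and 211 in high and 92.3 and 113 in low glucose. OXA1L, which inserts proteins into the inner membrane from the matrix, had the largest fall, 2.47-fold, with 837 and 823 against 2011 and 2084. In 15 further measured genes of quality control, from a list of 18, 5 rose, 3 fell and 7 did not pass, with a median of 0.14. The 53.3% called lie close to the 57.6% of all genes. CLPB, a disaggregase of the intermembrane space, rose 3.52-fold, from 84.2 and 103 in low to 342 and 314 in high glucose, and the ubiquitin ligase MUL1 fell 2.69-fold, from 681 and 589.7 to 247 and 224. OMA1, the stress-activated protease that also cleaves OPA1, was chosen after its values were seen, and rose 2.38-fold, from 142 and 176 to 362 and 389.

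**Figure D5:**
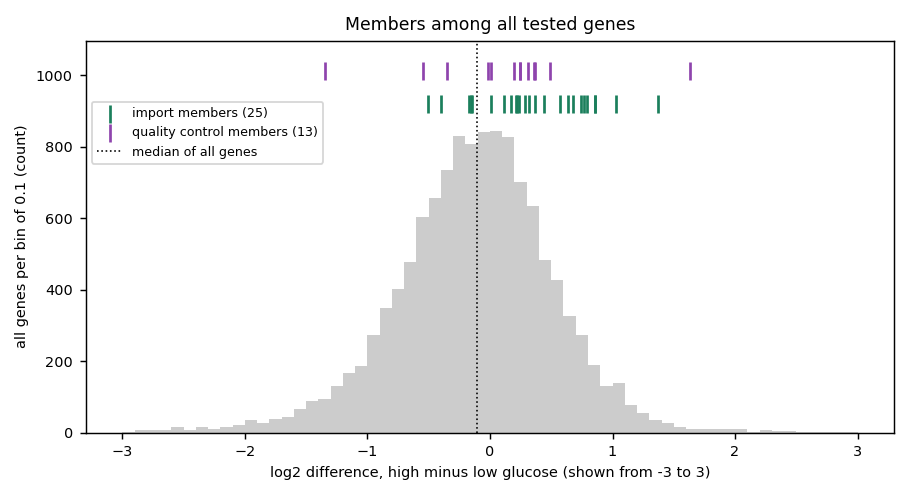
Number of genes per bin of 0.1 log2 units of difference, high minus low glucose, for the 12242 genes tested (grey, shown from -3 to 3), with a tick for each of the 25 import (green) and 13 quality control (purple) members and the median of all genes dotted. Most ticks lie right of the median at -0.10, and LONP1 and HSPE1 are the outermost ticks.

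RefSeq promoter windows of 300 bases, from 250 bases before each start, were found for 37 of the 42 members, 6 of them with more than 1 window. Both strands were searched, and a gene counted when any of its windows held a match. The shares over all windows count single windows, so they are not in the same unit as the member counts. No share per gene was computed over all genes. The NRF1 pattern was found for 13 of 37 members and in 8.32% of all 35116 windows of the same length. CCGGAAG, an ETS core bound by GABPA, was found for 14 of 37 and in 10.3% of windows, and CCAAT for 14 of 37 and in 34.6%. AAGATGGC, a YY1 core, was found for 3 of 37 members and in 2.89% of windows. TGATGNAA, a core bound by ATF4 with its partners, was found for TIMM22 and PMPCB and in 3.62% of windows. Of the 22 members called higher that had a window, 7 held the NRF1 pattern and 6 the ETS core, and of the 11 other measured members with a window, 4 and 6 did. CCAAT was found for 11 of the 22 and 3 of the 11. The heat shock core TTCNNGAA was found for 5 of 37 members, 2 of the 22 and 3 of the 11, and in 7.74% of windows. The core GAANNTTC was found for 1 of 37, which was not among the 22, and in 6.77% of windows. These matches describe letters in the windows and not binding.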

How the data were processed

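The values are signal intensities (linear, 1 for each probe set on each array) that the authors deposited. GCOS, Affymetrix array software, is named with no version in the submitters' processing notes, and no further step is given there. The 2% trimmed mean was about 200.02 on each array, so the intensities had been scaled before deposit. No detection calls were used, and the number of arrays limits the precision.

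Of 54675 probe sets, 62 controls were left out, and the platform annotation named 1 gene for 41097. Signals were log2-transformed with no pseudocount or further normalization, and 27307 probe sets at or above the median of mean log2 signals were kept. Each gene was represented by its brightest probe set. limma 3.58.1 in R 4.3.3 (lmFit, eBayes with an intensity trend, two-sided, Benjamini-Hochberg over 12242 genes, adjusted p under 0.05) compared 2 arrays with 2. Every adjusted p comes from limma. Errors beside log2 differences are SE. Probe set calls come from the same fit over all kept probe sets.

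The fit was tested on simulated data with known changes. It recovered 54.5% of the changes of 0.5 log2 units, 87.2% of those of 1 and 96.1% of those of 2. Of the calls made there, 7.44% were false. In the simulation only a small part of the genes was changed, and the noise was independent, with no shift of whole arrays. In the real data 57.6% of genes were called and control probe sets differed between the groups. These rates therefore describe the simulated setting and need not hold for the real data. Alternatives covered other normalizations, filters, probe set choices, a pseudocount, the fit without the trend, a replicate block and leaving out each array.

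Values on all 4 arrays are given for members called at 1.5-fold or more, their listed partners and the brightest and dimmest members, and for others described beside them, which were chosen after their values were seen. Of each further list the largest called rise and fall are named. Members, lists and motifs were chosen with earlier results of these data known.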

Additional observations from a re-analysis of the deposited data

How the results depend on the processing

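Over 14 alternatives, 448 of 522 member values kept their direction and their side of the threshold, 42 lost the call, 17 gained it and 15 changed sign. The filters, the fit without the trend and the replicate block left the differences of measured members as they were, and could move only their p-values. With no filter, a mean signal of at least 100 and the pseudocount, 37, 37 and 38 values were kept. The total of 448 thus includes values that could hardly change. TOMM5, TOMM22, TOMM40, TOMM70, TOMM34, TIMM9, GRPEL1, MTX2, HSPE1, LONP1, AFG3L2 and HTRA2, 12 of the 30 called members, were called in the same direction in each alternative that gave a value. Of these, TOMM40, TOMM34, TIMM9, MTX2, HSPE1 and LONP1 had 1 probe set above the filter, so the mean of probe sets could not differ. TOMM22, TOMM40, HSPE1, LONP1 and HTRA2 gave no value without _x_at and _s_at probe sets. Import genes called higher numbered 18, against 13 without the intensity trend and 11 of 19 measured without _x_at and _s_at probe sets. Other settings with all arrays gave 17 to 19. Quality control genes called higher numbered 7, with 5, 5 of 9 and 6 to 8 in these settings, respectively. In both sets fewer genes were called higher when any of the arrays was left out. Import genes called lower numbered 2, against 4 after quantile normalization, 1 after median centring, 1 without the intensity trend and 1 to 4 when an array was left out. The import median of 0.32 became 0.26 after quantile normalization, 0.49 after median centring, 0.34 with no filter, 0.26 with the mean of probe sets and 0.28 to 0.36 when an array was left out. The quality control median of 0.25 became 0.42 after median centring, 0.19 with the mean of probe sets, 0.19 without _x_at and _s_at probe sets and 0.16 to 0.26 when an array was left out. Leaving out an array leaves 1 in its group, which is assumed to vary like the other group. The sign changed for TIMM8B after median centring (0.022), with the mean of probe sets (0.24) and without _x_at and _s_at probe sets (0.62), for TIMM22 with the mean of probe sets (-0.074), and for PMPCB after median centring (0.017). It also changed for GRPEL2 after quantile normalization (-0.013), cyclic loess (-4.7e-05) and when an array was left out (-0.064 to 0.077), for HSPA9 after quantile normalization (0.013), median centring (0.15) and with an array left out (-0.074 to 0.041), and for CLPP after quantile normalization (-0.050) and with an array left out (-0.017 to 0.042). Without the intensity trend TIMM8A, TIMM10, TIMM13, TIMM17B, PAM16, PMPCA, TRAP1 and OPA1 lost their calls, with the mean of probe sets SAMM50, CLPX and PHB1 did, and without _x_at and _s_at probe sets TIMM17A, TIMM21, TIMM50, TIMM44 and YME1L1 did. Apart from the settings that use other or fewer probe sets or arrays, the cause was not tested.

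Leaving out an array also chose the filter and the brightest probe sets anew, which changed the probe set of 1 member, TIMM44. With genes and probe sets kept as with all arrays, an alternative chosen after seeing the data, TIMM8A and TIMM17B also lost their calls without low glucose replicate 1, and the sign changed without high glucose replicate 1 for GRPEL2 (-0.0043), without high glucose replicate 2 for CLPP (-0.017), without low glucose replicate 1 for GRPEL2 (-0.064) and without low glucose replicate 2 for CLPP (-0.0035) and HSPA9 (0.041). Pair ratios over all combinations of probe sets were likewise added after seeing the data.

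With the replicate number as a block, 18 import genes were called higher and 3 lower, and 8 quality control genes higher and 3 lower, with TOMM20 and HSPD1 gaining a call and no other member changing. The deviations of arrays with the same number had a correlation of -0.0039. The numbers are not said to mark a shared batch or day, and this value cannot settle whether they do.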

Other observations

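MICOS, the complex that shapes the cristae of the inner membrane, and proteins bound to it were higher in high glucose in 9 of 11 listed genes, with 0 lower and 2 not passing (limma, adjusted p under 0.05, beside 24.3% of all genes called higher), and a median of 0.29 log2 units. SAMM50, MTX1 and MTX2 are also in this list. MICOS10, a core subunit, had 3010 and 3067 in high and 1484 and 1510 in low glucose, a 2.03-fold rise. After its values were seen, APOO was chosen as a further subunit, with 3394 and 3358 in high and 2034 and 2156 in low glucose (1.61-fold). IMMT, the scaffold of the complex, stood at 0.13 and did not pass.

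Of 12 regulators of mitochondrial stress signalling or mitochondrial gene expression, 1 rose, 7 fell and 4 did not pass, so that 66.7% were called beside 57.6% of all genes (24.3% higher and 33.3% lower). DDIT3, the factor CHOP, fell 23.0-fold, from 3802 and 3520 in low to 151 and 167 in high glucose, and PPARGC1B, a coactivator of mitochondrial genes, rose 1.68-fold, from 92.6 and 108 to 174 and 162. DELE1, which relays mitochondrial stress to the cytosol, was chosen after its values were seen and fell 2.14-fold, with 588 and 563 in low and 275 and 263 in high glucose. NRF1 and GABPA, which bind 2 of the patterns searched in the promoters, did not pass, at 0.036 and 0.12 log2 units. Among factors for other searched patterns, ATF4, HSF1 (heat shock elements) and YY1 were called lower, at -1.14, -0.44 and -0.25.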
